A study of Mus musculus with 8 samples.

Results

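A set of 10 genes that encode receptors, surface proteins and a secreted marker of endothelial cells, the cells that line blood vessels, was followed in the embryonic mouse cerebellum after loss of Pals1: Emcn, Pecam1, Esam, Tek, Tie1, Flt1, Kdr, Eng, Ramp2 and Egfl7. Every probe annotated to these symbols was taken, which gave 14 of the 25697 probes and 10 of the 16593 gene symbols on the array. The knockout animals (CKO, n = 4) were Pals1 fl/fl and carried hGFAP-Cre, a transgene in which the human GFAP promoter drives Cre recombinase. Per the series design this removes Pals1 in the majority of neurons and glia of the cerebellum, and no vascular cells are named. The WT animals (n = 4) were also Pals1 fl/fl but had no Cre. All cerebella were taken at embryonic day 17.5 and hybridised to Illumina BeadArrays, an array per animal.

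Vessels of the developing brain grow in from its surface. VEGF made by neural cells guides their endothelium through the receptor tyrosine kinase Kdr (VEGFR2), while Flt1 (VEGFR1) binds the same ligand and limits how much reaches Kdr. Vessel stability depends on another kinase system, in which the ligand Angpt1 activates Tek (Tie2), Angpt2 commonly opposes it, and Tie1 modulates Tek. Because whole tissue was measured, fewer endothelial cells and less RNA per endothelial cell cannot be told apart in any of these values. A level is the normalized log2 intensity of a probe, so levels were compared between animals and not between genes.

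Mpp5, the gene for Pals1, checked the labels. Its level was 6.28, 6.19, 6.25 and 6.08 in CKO.1 to CKO.4, against 7.09, 7.07, 7.09 and 7.01 in WT.1 to WT.4 (limma adjusted p = 8.43e-06; the change of -0.87 was -0.42 with the mean of its probes). The position of its probe relative to the deleted exons is unknown here. Median raw intensities per array lay between 118.7 and 133.5 in CKO and between 124.1 and 132.3 in WT. CKO.3 stood apart in markers of fibroblasts from the meninges, the membranes on the brain surface: the summed normalized intensity of 17 such genes was 20510 in CKO.3, 7523 to 8597 on the other CKO arrays and 6896 to 8324 in WT. Results are therefore given with and without CKO.3. Sex-linked transcripts were also unevenly spread: the raw intensity of the X-inactivation transcript Xist was 112.1 to 116.0 in CKO, against 1210.7, 1091.7, 122.9 and 830.9 in WT.1 to WT.4. That of the Y-linked gene Eif2s3y was 657.9, 636.2, 775.4 and 706.6 in CKO.1 to CKO.4, against 78.8, 75, 497 and 77.1 in WT.1 to WT.4. By these transcripts all CKO arrays and WT.3 look male, and WT.1, WT.2 and WT.4 female. Inferred sex thus nearly follows genotype, so the changes below cannot be assigned to genotype alone. An alternative fit took the Xist level as a covariate, and in it WT.3 is the only WT array near the Xist level of CKO.

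Most of the endothelial genes did not pass the test between the genotypes. All 10 were bright enough to be tested: Emcn and Pecam1 rose, none fell and 8 did not pass (limma, two-sided, Benjamini-Hochberg adjusted p under 0.05 over 12912 genes). At an unadjusted p under 0.05, 3 were higher and 0 lower, where 15.8% of all tested genes were higher and 14.2% lower. Among all tested genes 9.15% were called higher and 8.64% lower, so the share of endothelial genes called is read against these. Those percentages stand for 1182 genes higher and 1115 lower, and median scaling of the arrays gave 792 and 1337. The median change of the 10 genes was 0.15 on the log2 scale, beside 0.0075 over all tested genes, and it was 0.046 without CKO.3. Of the 14 probes 13 were tested, of which 1 rose and 0 fell, where 8.15% of all tested probes were called higher and 7.98% lower. Every CKO array lay above every WT array for Emcn and Pecam1 and for none of the other 8 genes, and 10.9% of all tested genes showed that order and 10.2% the opposite one. Without CKO.3 only Emcn was higher and 0 were lower, beside 10.1% and 9.82% of all genes.

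**Figure D1:**
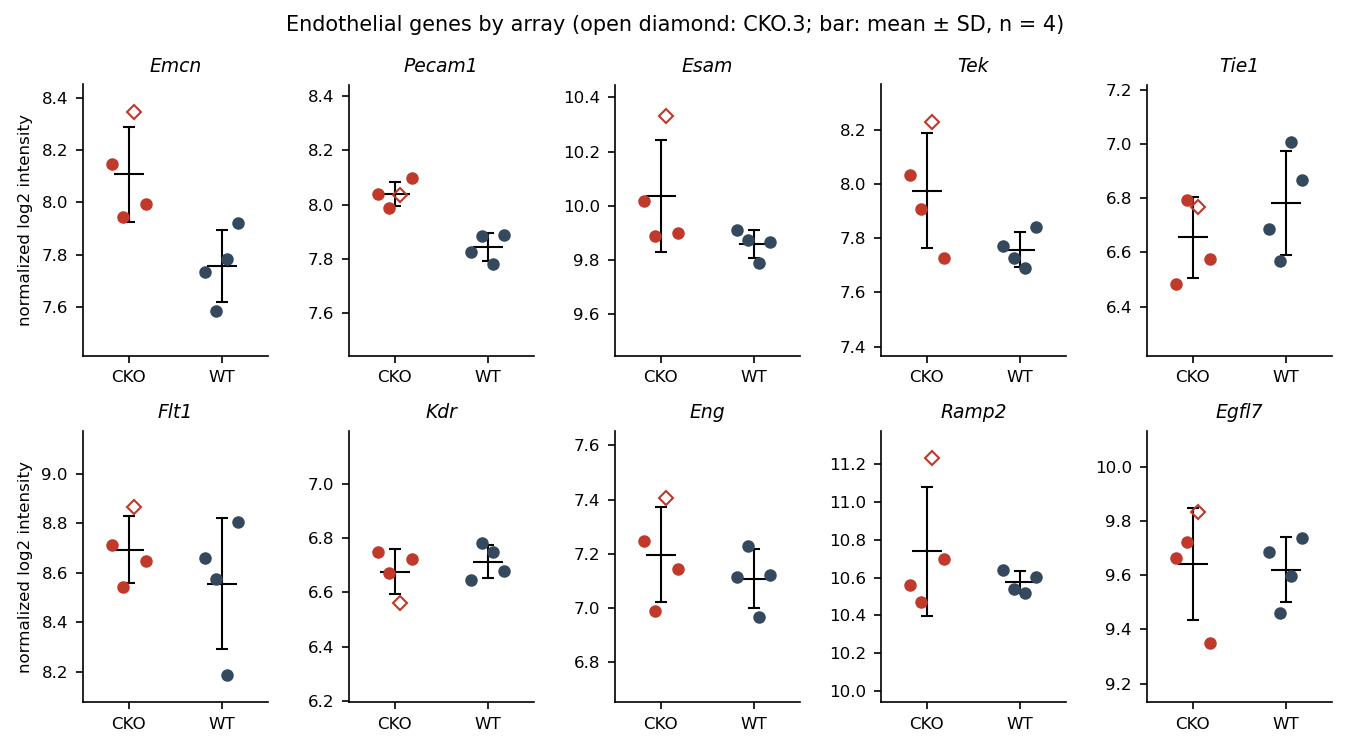
Normalized log2 intensity of the brightest probe of each endothelial gene on every array, CKO left and WT right in each panel, with the mean and SD (n = 4); each panel has its own axis. Emcn and Pecam1 separate the groups, and CKO.3 (open diamond) is the highest of the 8 arrays for 7 of the 10 genes.

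Sequence around the start was found for 7 of the 10 genes in the RefSeq promoter table (build GRCm38.p6), as 9 windows that reach from 250 bases before to 50 bases after a start. Endothelial genes are known targets of ETS transcription factors, so the windows were searched on both strands for CAGGAAG, a core of many ETS sites. They were also searched for AACAGGAA, the core of a composite forkhead and ETS site. The motifs share letters, so a single stretch can match both. CAGGAAG was found in 3 of the 9 windows, of Emcn and Egfl7, and in 13.3% of all 32851 windows. AACAGGAA was found in 2 of the 9, again of Emcn and Egfl7, and in 2.65% of all windows. The 250 bases upstream of a start are shown 5′ to 3′ for Emcn, which rose, and for Egfl7, which did not pass but also holds both motifs. They are also shown for Tek, whose window here holds neither. Matches are in capitals. The stretches lie at chr3:137340828-137341077 (Emcn), chr2:26580833-26581082 (Egfl7) and chr4:94739039-94739288 (Tek), all on the + strand. The annotated Tek gene begins at 94739086, so most of its stretch lies inside the gene, before a later start. The Emcn gene begins at 137341062, so the end of its stretch lies inside too.
Emcn: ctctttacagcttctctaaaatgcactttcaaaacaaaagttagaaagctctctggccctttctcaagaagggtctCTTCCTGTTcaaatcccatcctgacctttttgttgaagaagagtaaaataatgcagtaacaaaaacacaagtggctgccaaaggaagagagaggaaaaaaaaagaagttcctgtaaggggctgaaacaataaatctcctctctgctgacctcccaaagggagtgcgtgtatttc
Egfl7: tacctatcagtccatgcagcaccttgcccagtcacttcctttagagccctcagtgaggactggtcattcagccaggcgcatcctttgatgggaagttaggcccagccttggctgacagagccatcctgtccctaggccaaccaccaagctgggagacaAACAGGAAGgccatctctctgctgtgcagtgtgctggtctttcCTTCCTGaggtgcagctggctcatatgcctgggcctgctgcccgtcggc
Tek: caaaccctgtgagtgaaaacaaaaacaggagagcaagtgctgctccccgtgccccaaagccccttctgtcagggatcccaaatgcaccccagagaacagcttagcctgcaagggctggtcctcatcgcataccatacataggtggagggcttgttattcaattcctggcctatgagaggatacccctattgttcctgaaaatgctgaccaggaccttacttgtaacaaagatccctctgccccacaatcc
In Emcn both motifs overlap on the opposite strand, at positions -174 and -173 from the start. In this Egfl7 window they overlap on the same strand at positions -92 and -90, and another CAGGAAG lies on the opposite strand at position -49. A match of letters describes the window and is not a site shown to be bound.

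Among the adhesion and surface proteins, Emcn (endomucin), a sialomucin of venous and capillary endothelium, had the largest change of the 10 genes. Its level was 8.15, 7.94, 8.35 and 7.99 in CKO.1 to CKO.4, against 7.73, 7.59, 7.78 and 7.92 in WT.1 to WT.4. The lowest CKO array lay just above the highest WT array. The means were 8.11 ± 0.18 in CKO and 7.76 ± 0.14 in WT (SD, n = 4 each), a rise of 0.35 or 1.28-fold (SE 0.098, 95% interval 0.14 to 0.56, limma adjusted p = 0.0249). Without CKO.3 the rise was 0.27 (95% interval 0.08 to 0.46, adjusted p = 0.0480). The call was lost without CKO.1 (0.34, adjusted p = 0.0628), WT.1 (0.34, adjusted p = 0.0595) or WT.2 (0.29, adjusted p = 0.0855), with median scaling and with the Xist covariate (0.30, adjusted p = 0.316), and adjusted p spanned 0.0135 to 0.316 across the alternatives.

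Pecam1 (CD31), an adhesion molecule of endothelial junctions that leukocytes and platelets also carry, has 2 probes. The brighter one had levels of 8.04, 7.99, 8.04 and 8.10 in CKO.1 to CKO.4, against 7.83, 7.88, 7.78 and 7.89 in WT.1 to WT.4. The groups were tight and did not overlap, and CKO.3 lay in the middle of the CKO arrays. The rise was 0.20 or 1.15-fold (SE 0.063, 95% interval 0.06 to 0.33, limma adjusted p = 0.0489), close to the threshold. It was also 0.20 without CKO.3, with an adjusted p of 0.0677, and leaving out each of the 8 arrays in turn ended the call (limma adjusted p 0.0619 to 0.123; 0.0258 to 0.147 across the alternatives). Neither did Pecam1 pass with the Xist covariate (0.26, adjusted p = 0.147) or median scaling (0.16, adjusted p = 0.142). The other probe, annotated to NM_001032378, had levels of 7.30, 7.20, 7.45 and 7.42 in CKO.1 to CKO.4, against 7.21, 6.97, 7.15 and 7.10 in WT.1 to WT.4, with overlapping groups. It changed by 0.23 (limma adjusted p = 0.0649 over all probes, against 0.0563 for the brighter probe in that fit), so neither passed probe by probe.

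Esam, an immunoglobulin-family adhesion molecule of endothelial tight junctions and platelets, had levels of 10.02, 9.89, 10.33 and 9.90 in CKO.1 to CKO.4, against 9.91, 9.87, 9.79 and 9.87 in WT.1 to WT.4. CKO.3 was above all other arrays, and the other CKO arrays overlapped WT. The difference was 0.17 (95% interval -0.03 to 0.38, limma adjusted p = 0.237), and 0.075 without CKO.3 (95% interval -0.08 to 0.23, adjusted p = 0.537).

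**Figure D2:**
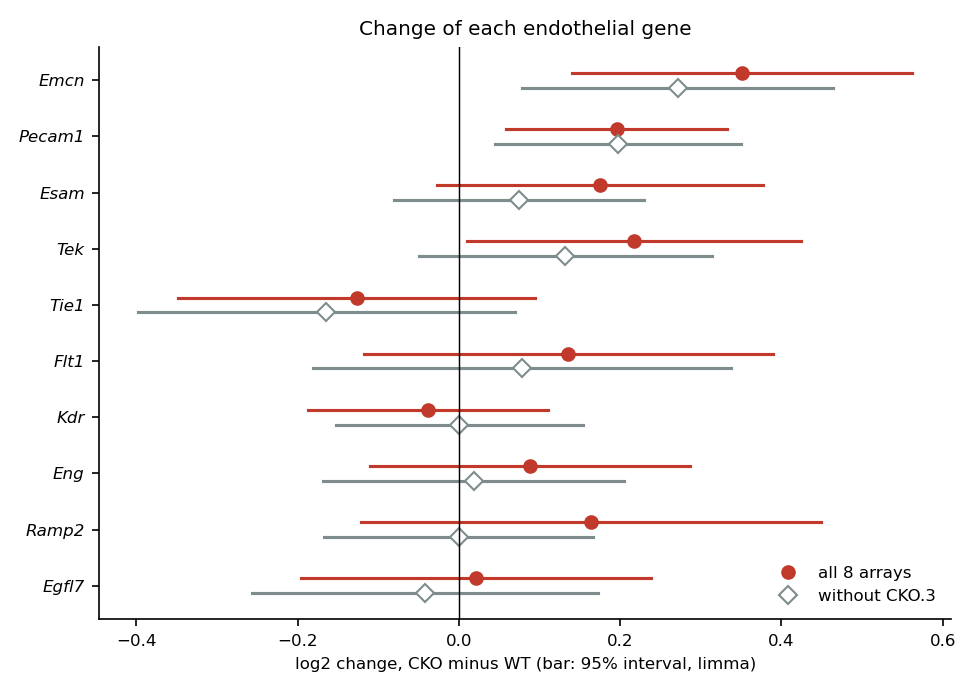
Log2 change of each endothelial gene, CKO minus WT, with its 95% interval from limma, over all 8 arrays (filled circles) and without CKO.3 (open diamonds). The intervals of Emcn and Pecam1 lie above 0 in both fits, while the change of Ramp2 is 0.16 with CKO.3 and -4.10e-04 without it.

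Of the TIE receptors, Tek, the angiopoietin receptor, had levels of 8.03, 7.91, 8.23 and 7.73 in CKO.1 to CKO.4, against 7.77, 7.73, 7.69 and 7.84 in WT.1 to WT.4. CKO.4 lay inside the WT range and the other CKO arrays above it. The difference of 0.22 did not pass (95% interval 0.01 to 0.42, limma adjusted p = 0.146). It was 0.13 without CKO.3 (adjusted p = 0.323), and it passed without CKO.4 (0.30, adjusted p = 0.0430; 0.0430 to 0.353 across the alternatives). Tie1, a receptor that pairs with Tek, had levels of 6.48, 6.79, 6.77 and 6.57 in CKO.1 to CKO.4, against 6.69, 6.57, 7.01 and 6.87 in WT.1 to WT.4. Its groups overlapped and its difference of -0.13 did not pass (95% interval -0.35 to 0.09, adjusted p = 0.460; -0.16 without CKO.3, adjusted p = 0.341). With the Xist covariate it was -0.37, adjusted p = 0.164, and it spanned -0.20 to -0.053 when single arrays were left out. The Tie1 probe ranked at percentiles 36.8 to 54.0 of its array.

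Both main ligands of Tek passed the test, in opposite directions. Angpt1, the activating ligand, had levels of 7.09, 7.09, 7.05 and 7.01 in CKO.1 to CKO.4, against 7.48, 7.43, 7.48 and 7.59 in WT.1 to WT.4. It fell by 0.43 (95% interval -0.57 to -0.29, limma adjusted p = 6.84e-04; -0.43 without CKO.3), and the groups were well apart. Angpt2, the context-dependent antagonist that endothelial cells release, had levels of 7.91, 7.78, 8.60 and 8.11 in CKO.1 to CKO.4, against 7.54, 7.48, 7.46 and 7.64 in WT.1 to WT.4. It rose by 0.57 (95% interval 0.27 to 0.87, adjusted p = 0.0131), and by 0.40 without CKO.3, its highest array (adjusted p = 0.00582; 0.00582 to 0.140 across the alternatives). Angpt1 passed under all 19 alternatives, with changes of -0.56 to -0.19, and Angpt2 lost its call with the Xist level as a covariate (0.63, adjusted p = 0.140). Each value rests on 1 probe. With the mean of each gene's probes the changes were -0.19 for Angpt1 and 0.33 for Angpt2. The other Angpt1 probe was below the brightness filter and changed by 0.044, and the other Angpt2 probe, with a mean level of 6.27 at the edge of that filter, changed by 0.10 (adjusted p = 0.375 over all probes). On the list of angiopoietin ligands and TIE regulators 6 genes were tested. Angpt2 was the 1 that rose and Angpt1 the 1 that fell, beside 9.15% and 8.64% of all tested genes.

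**Figure D3:**
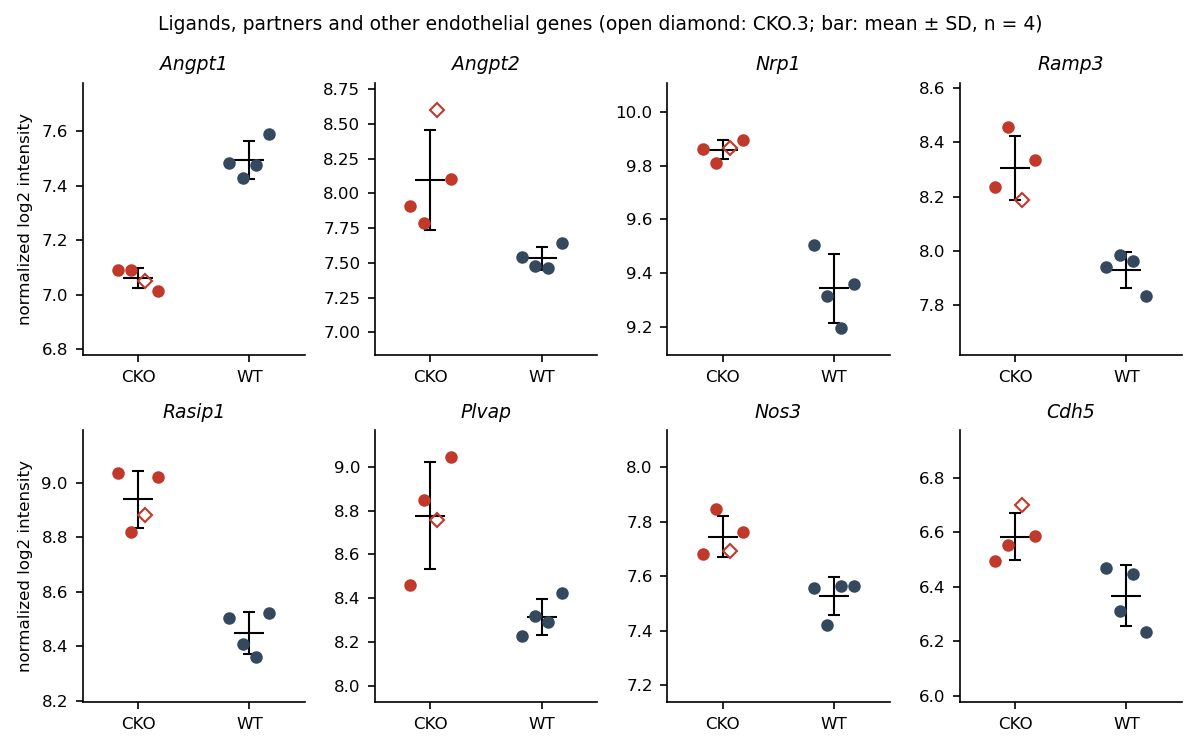
Normalized log2 intensity of 8 ligands, partners and further endothelial genes on every array, CKO left and WT right in each panel, with the mean and SD (n = 4); each panel has its own axis. Angpt1 is lower in all CKO animals than in any WT animal, and the other 7 genes are higher, Cdh5 and Plvap by a small margin.

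The VEGF receptors did not pass. Flt1 had levels of 8.71, 8.54, 8.87 and 8.65 in CKO.1 to CKO.4, against 8.66, 8.57, 8.19 and 8.80 in WT.1 to WT.4. WT.3 was the lowest array and the groups overlapped. The difference was 0.14 (95% interval -0.12 to 0.39, limma adjusted p = 0.496), 0.078 without CKO.3 and 0.012 without WT.3, but 0.50 with the Xist covariate (adjusted p = 0.0620; 0.0620 to 0.954 across the alternatives). Another Flt1 probe lay below the brightness filter, with means of 6.07 in CKO and 5.96 in WT, and was not tested. Kdr had levels of 6.75, 6.67, 6.56 and 6.72 in CKO.1 to CKO.4, against 6.65, 6.78, 6.75 and 6.68 in WT.1 to WT.4. Its groups overlapped, and it was the gene for which CKO.3 was the lowest array. The difference was -0.038 (95% interval -0.19 to 0.11, adjusted p = 0.771), 2.99e-04 without CKO.3 and -0.075 with the Xist covariate. The Kdr probe ranked at percentiles 40.2 to 48.1 of its array, and the added offset pulls differences of dim probes towards 0.

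Around these receptors, 11 VEGF ligands, co-receptors and partners were tested. Of these 1 rose and 0 fell (limma), beside 9.15% and 8.64% of all tested genes, and the median change was 0.078. At an unadjusted p under 0.05, 2 were higher and 2 lower, beside 15.8% and 14.2% of all genes. The higher ones include the adhesion gene Cdh5, which is also on the list of further endothelial markers. The gene that rose was Nrp1, a co-receptor for VEGF and semaphorins that neurons also carry, with levels of 9.86, 9.81, 9.87 and 9.90 in CKO.1 to CKO.4, against 9.50, 9.31, 9.19 and 9.36 in WT.1 to WT.4. All CKO arrays were above all WT arrays (0.52, SE 0.074, limma adjusted p = 5.44e-04, and 0.52 without CKO.3). Nrp1 kept its call with the Xist covariate (0.68, limma adjusted p = 0.00866). Vegfa had levels of 10.38, 10.03, 10.60 and 10.54 in CKO.1 to CKO.4, against 10.54, 10.26, 9.80 and 10.65 in WT.1 to WT.4, with WT.3 again the lowest. Its difference of 0.078 did not pass (limma adjusted p = 0.812) and turned to -0.093 without WT.3 (adjusted p = 0.722), but to 0.60 with the Xist covariate (adjusted p = 0.117; 0.117 to 0.985 across the alternatives). Another Vegfa probe changed by -0.10 (adjusted p = 0.571 over all probes) and the third was below the filter. Pgf, placental growth factor, a ligand of Flt1, differed by -0.19 (limma adjusted p = 0.0557) and passed without CKO.3 (-0.21, adjusted p = 0.0451; 0.0302 to 0.167 across the alternatives). Vegfc, a ligand of Flt4 named after its values were seen, was the other of 2 genes that fell without CKO.3 (-0.33, limma adjusted p = 0.0345). With all arrays Vegfc was at -0.27 (adjusted p = 0.0979). In the fit without CKO.3, 10.1% of all genes were higher and 9.82% lower.

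Eng (endoglin) is an endothelial co-receptor for BMP9 and TGF-beta ligands that works with the receptor Acvrl1 (ALK1). Its level was 7.25, 6.99, 7.41 and 7.14 in CKO.1 to CKO.4, against 7.11, 7.23, 6.97 and 7.12 in WT.1 to WT.4, with overlapping groups. The difference was 0.088 (95% interval -0.11 to 0.29, limma adjusted p = 0.583), 0.018 without CKO.3 and 0.23 with the Xist covariate (adjusted p = 0.387; 0.282 to 0.919 across the alternatives). Acvrl1 lay below the brightness filter and was not tested. Of 13 tested genes of the pathway 0 rose and 3 fell (limma), beside 9.15% and 8.64% of all tested genes. At an unadjusted p under 0.05 there were 2 and 4, beside 15.8% and 14.2% of all genes. The median change was -0.076. The common mediator Smad4 fell by 0.45 (limma adjusted p = 6.84e-04), the BMP mediator Smad5 by 0.31 (adjusted p = 0.0199) and the BMP receptor Bmpr2 by 0.26 (adjusted p = 0.0189). All 3 are expressed in many cell types. Smad5 lost its call without CKO.2, CKO.4, WT.1, WT.2 or WT.4, and Bmpr2 without CKO.4, WT.1 or WT.2, with changes of -0.38 to -0.29 and -0.29 to -0.23 when single arrays were left out. With the Xist covariate all 3 lost their calls (Smad4 -0.40, adjusted p = 0.0516; Smad5 -0.092, adjusted p = 0.677; Bmpr2 -0.22, adjusted p = 0.261). The ligand Tgfb2, named after its values were seen, passed without CKO.3 (0.40, adjusted p = 0.0184, against 0.33, adjusted p = 0.0621, with all arrays).

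Ramp2 is the accessory protein that turns the receptor Calcrl into a receptor for adrenomedullin, a peptide needed for vessel integrity. Its level was 10.56, 10.47, 11.23 and 10.70 in CKO.1 to CKO.4, against 10.64, 10.54, 10.52 and 10.60 in WT.1 to WT.4. CKO.3 lay far above the other 7 arrays, which overlapped. The difference was 0.16 (95% interval -0.12 to 0.45, limma adjusted p = 0.459), and -4.10e-04 without CKO.3 (95% interval -0.17 to 0.17). Of 7 tested genes of the adrenomedullin and RAMP pathway 1 rose and 0 fell (limma), beside 9.15% and 8.64% of all tested genes. At an unadjusted p under 0.05 there were 1 and 2, beside 15.8% and 14.2% of all genes. The gene that rose was Ramp3, a related accessory protein, with levels of 8.24, 8.46, 8.19 and 8.34 in CKO.1 to CKO.4, against 7.94, 7.98, 7.97 and 7.83 in WT.1 to WT.4 (0.37, SE 0.075, adjusted p = 0.00428; 0.41 without CKO.3). Its groups did not overlap, but the call was lost with the Xist covariate (0.35, adjusted p = 0.116; 0.00223 to 0.116 across the alternatives), and the mean of its probes gave 0.23. Calcrl, at the edge of the brightness filter, differed by 0.16 (limma adjusted p = 0.234), by 0.37 with the Xist covariate (adjusted p = 0.0996; 0.0996 to 0.485 across the 11 alternatives that tested it), and was below the filter without CKO.3. Ramp1, which makes a CGRP receptor with Calcrl, differed by -0.20 (limma adjusted p = 0.115) and passed without WT.4 (-0.26, adjusted p = 0.0478; 0.0478 to 0.479 across the alternatives).

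Egfl7, a protein that endothelial cells secrete into their matrix, has 3 probes. The brightest had levels of 9.66, 9.72, 9.83 and 9.35 in CKO.1 to CKO.4, against 9.69, 9.46, 9.60 and 9.74 in WT.1 to WT.4. The groups were interleaved, with CKO.4 lowest and CKO.3 highest. The difference was 0.022 (95% interval -0.20 to 0.24, limma adjusted p = 0.920), and -0.042 without CKO.3. The other probes changed by 0.061 and -0.0084 (limma adjusted p = 0.815 and 0.964 over all probes), and all 3 intervals spanned 0.

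Of 40 further endothelial markers 35 had a probe annotated here and 31 were tested. Of these 3 rose and 0 fell (limma), where 9.15% of all tested genes were called higher and 8.64% lower. At an unadjusted p under 0.05 there were 8 and 0, beside 15.8% and 14.2% of all genes. The median change was 0.076. For 7 of these markers every CKO array lay above every WT array, an order that 10.9% of all tested genes showed. Rasip1, a Ras-interacting protein needed for vessel lumens, had levels of 9.04, 8.82, 8.88 and 9.02 in CKO.1 to CKO.4, against 8.50, 8.41, 8.36 and 8.52 in WT.1 to WT.4 (0.49, SE 0.074, limma adjusted p = 7.39e-04; 0.51 without CKO.3). Plvap, the diaphragm protein of fenestrated and immature vessels, had levels of 8.46, 8.85, 8.76 and 9.04 in CKO.1 to CKO.4, against 8.23, 8.32, 8.29 and 8.42 in WT.1 to WT.4 (0.46, SE 0.11, limma adjusted p = 0.00886; 0.47 without CKO.3). Both genes separated the groups. With the Xist level as a covariate Rasip1 kept its call (0.58, limma adjusted p = 0.0212). Plvap lost its call with that covariate (adjusted p = 0.130, and 0.00158 to 0.130 across the alternatives). Nos3, endothelial nitric oxide synthase, rose by 0.22 (limma adjusted p = 0.0432) and did not pass when any array but CKO.3 was left out (adjusted p 0.0603 to 0.132) or with the Xist covariate (0.18, adjusted p = 0.373; 0.00229 to 0.373 across the alternatives). Cdh5 (VE-cadherin), a defining endothelial marker named after its values were seen, had levels of 6.49, 6.55, 6.70 and 6.59 in CKO.1 to CKO.4, against 6.47, 6.31, 6.45 and 6.24 in WT.1 to WT.4. The groups did not overlap, but the difference of 0.22 did not pass (limma adjusted p = 0.0672). Cldn5 was not analysed here.

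The endothelial levels were set beside markers of other cells. CKO.3 was the highest of the 8 arrays for 7 of the 10 genes and the lowest for 1, and WT.3 was the lowest for 5. The mean deviation of the 10 genes from their 8-array means was 0.05, -0.02, 0.24 and -0.03 in CKO.1 to CKO.4, against -0.05, -0.09, -0.11 and 0.02 in WT.1 to WT.4. For the 17 tested meningeal markers it was 1.04 in CKO.3, -0.20 to -0.06 on the other CKO arrays and -0.29 to 0.01 in WT. Of these markers 15 had a positive and 2 a negative change, with a median of 0.38 (0.11 without CKO.3), and 6 were higher and 2 lower at an unadjusted p under 0.05. After adjustment 1 rose, the retinoic acid carrier Crabp2 (0.24, limma adjusted p = 0.0357), and 2 fell, Igfbp2 (-0.33, adjusted p = 0.0310) and Pdgfra (-0.98, adjusted p = 0.00206), which glial precursors also express. Crabp2 passed in 2 of 8 fits that left out an array and Igfbp2 in 3 of 8. Without CKO.3 the adjusted p of Crabp2 was 0.0728. In that fit 1 meningeal marker was higher and 2 were lower, beside 10.1% and 9.82% of all genes. The higher one was Igf2, named after its values were seen (0.39, limma adjusted p = 0.0242). With all arrays Igf2 was at 0.75 (adjusted p = 0.0677). For mural cells, the pericytes and smooth muscle cells around vessels, the mean deviation was 0.18 in CKO.3, -0.01 to 0.03 on the other CKO arrays and -0.09 to -0.02 in WT. Of 15 tested mural genes 2 rose, Vtn (0.52, limma adjusted p = 0.0143) and Kcnj8 (0.25, adjusted p = 0.0225), and 1 fell, Zic1 (-0.64, adjusted p = 0.00203), which granule cell progenitors also express. The meningeal and mural counts stand beside 9.15% of all tested genes called higher and 8.64% lower. At an unadjusted p under 0.05 these shares were 15.8% and 14.2%. Vtn passed in 7 of 8 and Kcnj8 in 4 of 8 fits that left out an array. With the Xist covariate Crabp2 (0.087, adjusted p = 0.675), Igfbp2 (-0.50, adjusted p = 0.0655), Pdgfra (-0.89, adjusted p = 0.106), Vtn (0.68, adjusted p = 0.0833), Kcnj8 (0.36, adjusted p = 0.0551) and Zic1 (-0.38, adjusted p = 0.207) lost their calls. The part of these cells in the endothelial values was not tested.

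**Figure D4:**
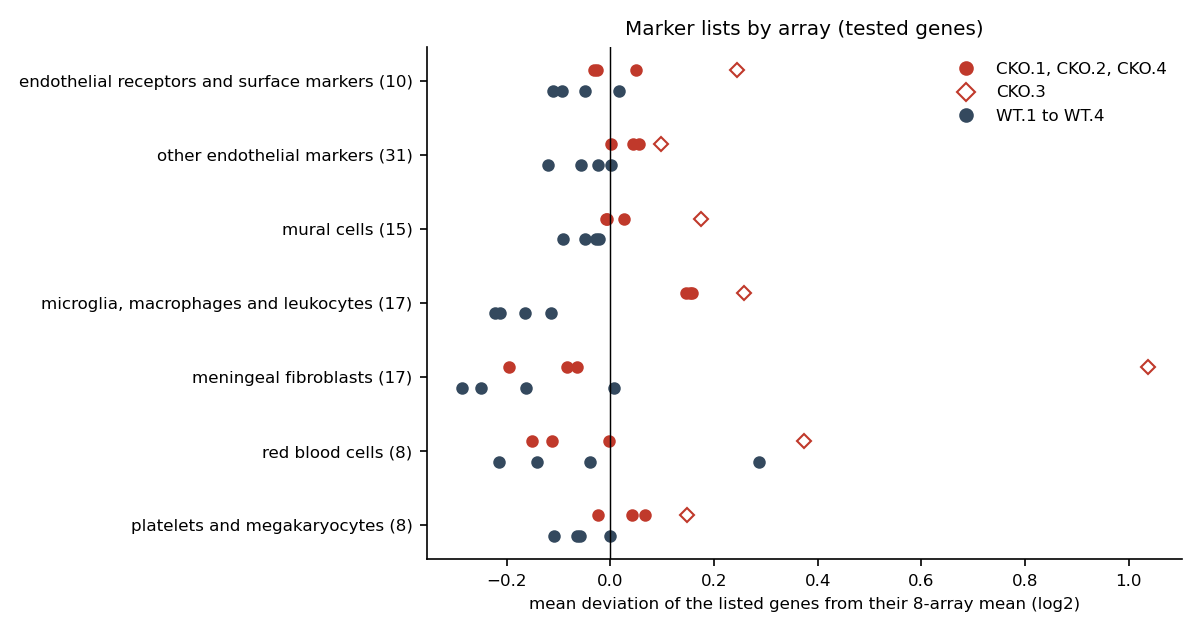
Mean deviation of each marker list from its 8-array gene means on the log2 scale (horizontal axis), CKO above WT in each row, with the number of tested genes in brackets. CKO.3 (open diamonds) is the highest array in each of the 7 rows shown, by the widest margin for meningeal fibroblasts.

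Most markers of microglia, macrophages and leukocytes, cells of which some carry Pecam1, were higher in CKO. Of 17 tested genes 11 rose and 0 fell (limma), beside 9.15% and 8.64% of all tested genes. At an unadjusted p under 0.05 there were 12 and 0, beside 15.8% and 14.2% of all genes. Changes were positive for 14 genes and negative for 3, which were P2ry12 (-0.048), Spi1 (-0.076) and Fcer1g (-0.24), none of them called. Without CKO.3 these were at 0.037, -0.10 and 0.18, again not called (limma adjusted p 0.428 to 0.934). The summed normalized intensity was 4887 to 5553 in CKO, against 3644 to 3711 in WT. Without CKO.3 9 rose and 0 fell, beside 10.1% and 9.82% of all genes. The lysozyme Lyz1 rose by 1.05, the complement subunit C1qb by 0.74, the immunoglobulin receptor Fcgr3 by 0.73 and the microglial marker Aif1 by 0.63. Fcgr3 passed in 5 of 8 fits that left out an array, and the other 3 in all 8. Fcgr3 lost its call with the Xist covariate (0.41, adjusted p = 0.489) and with trend and robust variance moderation (adjusted p = 0.112; 0.00499 to 0.489 across the alternatives). Lyz1 (0.90, limma adjusted p = 0.00866), C1qb (0.63, adjusted p = 0.0167) and Aif1 (0.49, adjusted p = 0.0330) kept their calls with the Xist covariate. With the mean of each gene's probes the rise was 0.32 for Lyz1 and 0.25 for Aif1. Ptprc (CD45), the general leukocyte marker, named after its values were seen, was close to the brightness filter with means of 6.33 in CKO and 6.27 in WT (limma adjusted p = 0.710). Of 8 red blood cell genes and of 8 platelet genes 0 passed in limma, and 0 had an unadjusted p under 0.05. The nearest were Car2 (0.15, limma adjusted p = 0.241), Slc4a1 (-0.15, adjusted p = 0.295), Pf4 (0.67, adjusted p = 0.230; 0.18 without CKO.3) and Itga2b (0.17, adjusted p = 0.292). With the Xist covariate Car2 was at 0.089 and Slc4a1 at -0.097. Summed platelet intensities were 879.9 to 1049 in CKO, against 812.4 to 872.9 in WT. The value of 1049 was that of CKO.3, and the other CKO arrays reached at most 901.9. The part of these cells in the rise of Pecam1 was not tested.

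Of 18 tested genes that low oxygen induces, Vegfa among them, 1 rose and 4 fell (limma), beside 9.15% and 8.64% of all tested genes. At an unadjusted p under 0.05 there were 3 and 5, beside 15.8% and 14.2% of all genes. The median change was 0.019. Ldha, lactate dehydrogenase, fell by 0.42 (limma adjusted p = 0.00778), the histone demethylase Kdm3a by 0.33 (adjusted p = 0.0138), the mTOR inhibitor Ddit4 by 0.27 (adjusted p = 0.0321) and the collagen hydroxylase P4ha1 by 0.27 (adjusted p = 0.0171). P4ha1 passed in 7 of 8 and Ddit4 in 2 of 8 fits that left out an array, and the adjusted p of Ddit4 was 0.0688 without CKO.3. With the Xist covariate all 4 lost their calls (Ldha -0.30, adjusted p = 0.269; Kdm3a -0.20, adjusted p = 0.395; Ddit4 -0.17, adjusted p = 0.475; P4ha1 -0.22, adjusted p = 0.265). The rise was that of Pfkfb3, a regulator of glycolysis (0.24, limma adjusted p = 0.0270), a gene named after its values were seen. In the fit without CKO.3, 1 gene of this list rose and 4 fell, beside 10.1% and 9.82% of all genes. Hk2, also named after its values were seen, was among those that fell there (-0.64, limma adjusted p = 0.0257). With all arrays Hk2 was at -0.43 and did not pass (adjusted p = 0.222).

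To describe which genes varied from animal to animal as the mean of the endothelial genes did, levels were taken relative to the mean of each group. The mean of the 10 genes was compared with every other tested gene over the 8 arrays. The 10 genes did not share a single pattern. Correlations of a gene with the mean of the other members were 0.064 for Pecam1, 0.017 for Tie1 and -0.79 for Kdr. For the rest they ran from 0.55 (Flt1) to 0.91 (Esam). The closest were Ghr, Mybl1, Cd82, Pip4k2c and Sult1a1, with Pearson correlations of 0.992, 0.981, 0.977, 0.976 and 0.968. They were picked as the highest of all genes compared, so the size of these values is not a test. All share the value of CKO.3, which stood apart, and 14.6% of all other genes had a correlation above 0.5. Between the genotypes Ghr, the growth hormone receptor, fell by 0.41 (limma adjusted p = 0.0160), and the other 4 did not pass (adjusted p 0.169 to 0.423).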

How the data were processed

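Total RNA of 8 cerebella was labelled as biotin cRNA and read on Illumina arrays, 4 CKO and 4 WT, grouped by title. The deposited linear intensity values come from BeadStudio, per the submitters' processing notes; its version and a genome build are not given in the sources used here. A further deposited table of log2 values differs by at most 0.0137 from quantile-normalized log2 intensities, so the authors' normalization was taken to be that, per its values. No detection p-values were used.

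Intensities were corrected with normexp (offset 50), quantile-normalized and put on the log2 scale (limma 3.58.1, R 4.3.3), the fallback stated in the design for a table without detection columns. The platform annotation names 23978 of 25697 probes. For each gene the probe of highest mean level was used, if above the first quartile of probes (6.26), leaving 12912 genes; 19272 probes were tested one by one. Genotype was fitted with lmFit and eBayes, and p-values were adjusted over the whole table. The code was tested on simulated data. The number of arrays limits the precision.

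The 10 genes and the 11 gene lists were chosen with earlier results of these data known. From a list, up to 4 genes past the threshold with the largest change are named, with at least 2 by smallest p, beside direct partners (Vegfa, Angpt1, Angpt2, Calcrl, Acvrl1). Alternatives were other background, scaling, filter, probe and variance settings, the authors' values, a replicate block, Xist and single arrays left out. Figures: matplotlib 3.10.9, Python 3.11.15.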

Additional observations from a re-analysis of the deposited data

How the results depend on the processing

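With 4 arrays per group the call of Pecam1 lies at the edge of what passed, and dim probes (Kdr, Tie1, Cdh5, Calcrl) are pulled towards 0 by the offset. The count of endothelial genes higher in CKO was 2. It was 1 with an offset of 16, without the brightness filter, with trend and robust variance moderation and with the replicate block, 0 with median scaling and with the Xist covariate, and 0 to 2 when single arrays were left out. The count of probes was 1. It was 0 with median scaling and with the Xist covariate, 3 with the filter at the median probe, 2 with array weights, and 0 to 2 when single arrays were left out. No endothelial gene or probe was called lower in any of the 19 alternatives. Over all genes the Xist covariate gave 363 higher and 430 lower, and leaving out single arrays gave 779 to 1299 higher and 793 to 1267 lower. Same-numbered arrays deviated with correlations of 0.061, -0.036, 0.15 and -0.047 across genes. Arrays of different number were not compared, so these values do not show whether the numbers mark a pairing. The replicate block gave 1090 higher and 1057 lower. The cause of these shifts was not tested.

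The following changes turned sign, and none was called: Egfl7 (-0.028 with median scaling, -0.042 to 0.12 without single arrays), its other probes (-0.060 and 0.086 with the Xist covariate, -0.044 to 0.20 and -0.049 to 0.046 without single arrays), Kdr (-0.061 to 2.99e-04) and Ramp2 (-4.10e-04 to 0.25) without single arrays, Vegfa (-0.0070 with the mean of its probes, -0.013 with array weights, -0.093 to 0.20 without single arrays) and Itga2b (-0.0047 with the Xist covariate). Of 899 alternative values of 48 changes of genes and probes, 782 kept direction and side of the threshold, 87 lost and 10 gained a call, and 20 turned sign. Kdr, Tie1, Mpp5, Pgf, Bmpr2, Pf4 and Calcrl could not be tested with the filter at the median probe, nor Calcrl in 7 other settings, since they fell below the filter.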
